A study of Mus musculus with 8 samples.

Results

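The set described here is 10 genes known from the LPS response. They are the cytokine genes Il1a, Il6, Il15 and Csf3, the TNF- and LPS-induced gene Tnfaip2, and the innate defence genes Hp, Lbp, Cfb, Ltf and Acod1. They were looked up by symbol in the authors' deposited table, which holds 259 genes, and all 10 are in it. The genes were chosen by their deposited fold changes, with earlier results of this table known, so their folds and p-values are given as a description and support nothing further. Every library came from FVB mouse mammary epithelial cells (PyVmT in the series design) in which Uba7 was knocked out. Its product UBE1L is the first enzyme of ISGylation, in which ISG15, a small interferon-induced relative of ubiquitin, is joined to target proteins. One group of 2 libraries came from Uba7 KO cells with an empty vector and the other group of 2 libraries from Uba7 KO cells given UBE1L. Both groups had received IFN, of a type, dose and duration not stated in the labels, and LPS at 100 ng/mL for 6 hours. The comparison therefore does not show whether LPS or IFN changed any of the 10 genes in these cells. The labels describe 4 further libraries with IFN and no LPS, which were not analysed here. How many lines carried each vector is not stated, so differences between lines and an effect of UBE1L cannot be told apart. No group with intact Uba7 is described.

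LPS, a lipid of the bacterial outer membrane, is handed by LPS-binding protein to CD14 and then to Toll-like receptor 4, which switches on NF-kB, AP-1 and interferon regulatory factors. Cells then secrete cytokines, and these act through receptors on neighbouring cells to induce a further wave of acute-phase and antimicrobial proteins, in which C/EBP and STAT factors take part. Mammary epithelium can itself sense LPS and is a known source of such proteins during mastitis. Many cytokine mRNAs are short-lived because AU-rich elements after their stop codon recruit decay factors.

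The promoters are shown first because the set is named for 1 response, and such responses are commonly read from the DNA just before the gene start. RefSeq promoter windows on GRCm38.p6, each with 250 bases before and 50 after the gene start, were held for 5 of the 10 genes. They lie at chr2:129309923-129310222 on the minus strand for Il1a, and on the plus strand at chr5:30012864-30013163 for Il6, chr12:111442411-111442710 for Tnfaip2, chr9:111019042-111019341 for Ltf and chr14:103046762-103047061 for Acod1. The other genes are Il15, Csf3, Hp, Lbp and Cfb. Each window is written along its gene, and capitals mark every match to the 7 motifs searched.
Il1a: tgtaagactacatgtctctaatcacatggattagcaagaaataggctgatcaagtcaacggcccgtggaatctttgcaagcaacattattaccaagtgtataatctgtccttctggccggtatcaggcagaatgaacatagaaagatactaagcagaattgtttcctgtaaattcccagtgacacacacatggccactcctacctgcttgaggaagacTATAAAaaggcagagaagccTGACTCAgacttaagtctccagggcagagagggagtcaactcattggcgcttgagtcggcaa
Il6: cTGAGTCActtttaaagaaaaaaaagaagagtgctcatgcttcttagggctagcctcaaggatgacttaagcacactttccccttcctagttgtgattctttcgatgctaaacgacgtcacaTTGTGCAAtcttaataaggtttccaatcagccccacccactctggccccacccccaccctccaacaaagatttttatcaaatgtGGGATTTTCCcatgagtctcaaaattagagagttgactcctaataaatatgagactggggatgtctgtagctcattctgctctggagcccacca
Tnfaip2: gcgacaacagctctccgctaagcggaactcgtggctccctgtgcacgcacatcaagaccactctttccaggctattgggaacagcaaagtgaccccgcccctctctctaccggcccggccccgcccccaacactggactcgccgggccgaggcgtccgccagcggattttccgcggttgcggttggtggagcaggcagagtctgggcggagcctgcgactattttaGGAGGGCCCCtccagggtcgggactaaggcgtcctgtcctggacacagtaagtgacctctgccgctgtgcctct
Ltf: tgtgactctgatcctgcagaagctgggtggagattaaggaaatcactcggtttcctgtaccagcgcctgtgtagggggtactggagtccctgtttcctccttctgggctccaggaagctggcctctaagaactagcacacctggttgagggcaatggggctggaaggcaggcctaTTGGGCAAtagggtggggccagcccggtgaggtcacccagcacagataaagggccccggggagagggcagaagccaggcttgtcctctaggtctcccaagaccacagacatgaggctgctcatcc
Acod1: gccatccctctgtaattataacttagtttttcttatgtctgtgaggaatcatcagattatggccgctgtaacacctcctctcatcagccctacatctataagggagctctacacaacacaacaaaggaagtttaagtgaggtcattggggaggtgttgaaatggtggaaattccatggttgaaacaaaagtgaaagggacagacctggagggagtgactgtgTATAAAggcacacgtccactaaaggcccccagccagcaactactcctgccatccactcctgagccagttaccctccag

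The motifs were searched on both strands, and a match that reads alike on both was counted once. They were the NF-kB consensus, the interferon response element core GAAANNGAA, the STAT site TTCNNNGAA, the C/EBP site TTGNNCAA, the AP-1 site TGANTCA, the cyclic AMP response element TGACGTCA and the TATA box TATAAA. No capital stretch in the 5 windows belongs to more than 1 of them. Il6 held the most kinds, with an NF-kB match beginning 44 bases before the start, a C/EBP match at 128 bases and an AP-1 match at 249 bases. Tnfaip2 held an NF-kB match on the opposite strand, 24 bases before its start, and Ltf held a C/EBP match 75 bases before its start. Il1a and Acod1 each held a TATA box, 32 and 28 bases before the start, and Il1a also an AP-1 match at 12 bases.

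For comparison, the NF-kB consensus occurred in 8.46% of all 32851 promoter windows, C/EBP in 6.40%, AP-1 in 7.81% and the TATA box in 13.6%. Counted by gene, 15.4% of the 195 genes of the deposited table with a window had an NF-kB match, 8.72% a C/EBP match, 13.3% an AP-1 match and 18.5% a TATA box, while each of the 4 motifs was found in 2 of the 5 windows shown. The interferon response element core (8.56% of all windows), the STAT site (8.30%) and the cyclic AMP response element (1.79%) had no match in these 5 windows. With 5 windows these counts describe the sequences and were not tested. A match is a stretch of letters and says nothing of binding in these cells.

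**Figure D1:**
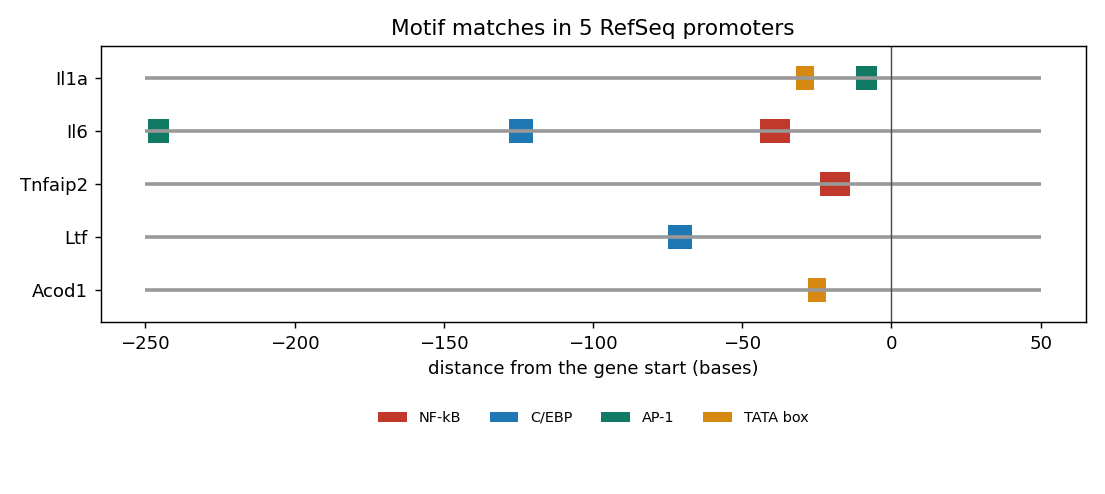
Motif matches in the 5 promoter windows, by distance from the gene start in bases (0 is the start, negative values lie before it). Each coloured block is 1 match. Il6 carries 3 kinds of match, and all 8 blocks lie before the start, as do 250 of the 300 bases of each window.

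Uba7 itself, the gene knocked out and added back, was 52.7-fold higher with UBE1L (log2 fold 5.72) in the authors' deposited table, the direction the labels give. That table gives 1 fold, 1 mean abundance and 1 test per gene for UBE1L over empty vector, and no values per library. The spread between the 2 libraries of a group, whether the groups overlap, and the depth of each library are therefore unknown for every gene described. Whether the 2 libraries were separate cultures is not stated, so the p-values may measure technical spread only.

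All 10 genes were higher with UBE1L and 0 were lower. This is to be read against the table as a whole, in which 83.8% of the 259 genes were higher. The number of genes that the authors tested is not given with the table. The authors' deposited table gives the 10 genes log2 folds between 0.51 and 1.40, with a median of 0.74, a 1.67-fold difference. The median over the 217 higher genes was 0.72, close to that of the 10. Hp, Il1a and Cfb, 3 of the 10, were higher by at least 1 log2 unit. So were 51 of the 217 higher genes, which is 19.7% of all 259.

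Read support differed widely among the 10. Mean abundance is given as log2 CPM, a count scaled to library size but not to transcript length, so it measures the reads behind a gene and not its level relative to another gene. In the authors' deposited table it lay between 0.62 for Il1a and 9.50 for Csf3. The median was 4.96 log2 CPM over the 10 genes and 2.95 over the 259 by the authors' deposited table. The 30 genes of the 259 with the highest mean abundance included 5 of the 10, namely Csf3, Acod1, Lbp, Ltf and Tnfaip2. This was not tested, since the genes were chosen with the table in view.

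**Figure D2:**
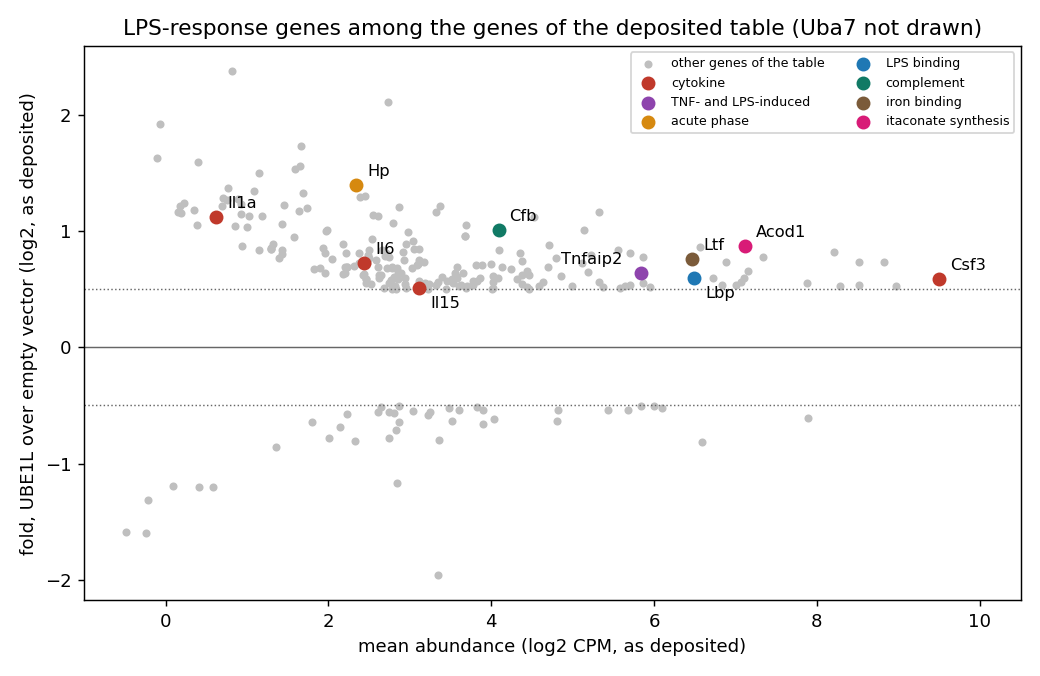
Log2 fold of UBE1L over empty vector against mean abundance in log2 CPM, both as deposited, with each point a gene and the 10 described genes coloured by role. Dotted lines mark a log2 fold of 0.5 in either direction, inside which the table holds no gene. Il1a, Hp and Il6 lie at low read support, and Csf3 lies at the right edge with a fold of 0.59.

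The largest fold among the 4 cytokines was that of Il1a, which also had the least read support. Il1a encodes interleukin-1 alpha, an alarm cytokine that signals through the same receptor as interleukin-1 beta. It was 2.17-fold higher in the authors' deposited table (log2 fold 1.12, adjusted p 0.0229). Its mean abundance of 0.62 log2 CPM, about 1.54 CPM, ranked 244 of 259 in the authors' deposited table. Il6 encodes interleukin-6, which drives the acute-phase response through STAT3. In the authors' deposited table it was 1.65-fold higher (log2 fold 0.72, adjusted p 0.00763) with a mean abundance of 2.44 log2 CPM. Its promoter, shown above, was the 1 window of those shown that held NF-kB, C/EBP and AP-1 matches together. How many of all windows hold these motifs together was not counted.

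Csf3 encodes granulocyte colony-stimulating factor, which raises the output and survival of neutrophils. It was 1.51-fold higher in the authors' deposited table (log2 fold 0.59, adjusted p 8.26e-14). With 9.50 log2 CPM, about 727 CPM, it had the second highest mean abundance of the 259 genes after Uba7. Il15 encodes interleukin-15, which sustains natural killer cells and memory CD8 T cells. It had the smallest fold of the 10 in the authors' deposited table, 1.43-fold (log2 fold 0.51, adjusted p 0.0110), with a mean of 3.12 log2 CPM. The table holds no fold under 0.50 in size, and Il15 lay just inside that limit. The gene next above it by fold was Boc, at 0.52 in the authors' deposited table.

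Tnfaip2 encodes a protein related to the exocyst subunit Sec6, is induced by TNF and LPS, and is known for forming membrane tubes between cells. The authors' deposited table has it 1.56-fold higher (log2 fold 0.64, adjusted p 5.93e-12) at 5.83 log2 CPM. Its window was the second of the 5 with an NF-kB match.

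The defence genes included the largest fold of the set. Hp encodes haptoglobin, an acute-phase protein that binds free haemoglobin and so keeps its iron from bacteria. It was 2.64-fold higher in the authors' deposited table (log2 fold 1.40, adjusted p 7.96e-06) at 2.34 log2 CPM, and stood 11th of the 259 genes by fold. Next above it by fold stood Ccrl2, at 1.50 in the authors' deposited table. Lbp encodes the LPS-binding protein that delivers LPS to CD14, and so belongs both to the acute phase and to the sensing step. In the authors' deposited table it was 1.51-fold higher (log2 fold 0.59, adjusted p 2.29e-15) at 6.49 log2 CPM.

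Cfb encodes complement factor B, the protease subunit of the alternative pathway convertase. It was 2.02-fold higher in the authors' deposited table (log2 fold 1.01, adjusted p 5.26e-15) at 4.09 log2 CPM. Of the 3012 distinct 50-base stretches in its GENCODE M21 transcripts, 2199 (73.0%) also occur in the annotated gene Gm20547, so its value is uncertain. Reads of 50 bases from those stretches cannot be assigned to 1 of the pair by sequence. Of the other 9 genes, Lbp shared 9 of 4811 stretches and the remaining 8 shared 0.

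Ltf encodes lactotransferrin, an iron-binding protein of milk and of neutrophil granules that withholds iron from bacteria. It was 1.69-fold higher in the authors' deposited table (log2 fold 0.76, adjusted p 9.00e-28) at 6.47 log2 CPM. Acod1 encodes the enzyme that makes itaconate from cis-aconitate, a metabolite with antibacterial and anti-inflammatory actions in macrophages. In the authors' deposited table Acod1 was 1.83-fold higher (log2 fold 0.87, adjusted p 1.34e-44) at 7.12 log2 CPM. By likelihood ratio it ranked 3 of the 259 genes, after Uba7 and Ly6c1, and Ltf ranked 9.

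Higher genes outnumbered lower ones in the table, 217 against 42. With an offset of 0.28 log2 units subtracted from every fold, 42 genes lie at or above a log2 fold of 0.78 and 42 at or below -0.78, Uba7 left out. The offset was set to give these equal tails, takes the excess of higher genes as unreal and measures no scaling error. With it subtracted, 4 of the 10 genes would stay at or above a log2 fold of 0.5. So would 90 of the 217 higher genes in the table, which is 34.7% of all 259. These were Hp at 1.12, Il1a at 0.84, Cfb at 0.74 and Acod1 at 0.60. Ltf at 0.48, Il6 at 0.45, Tnfaip2 at 0.36, Lbp at 0.32, Csf3 at 0.31 and Il15 at 0.23 would fall short of it. All 10 would stay above 0, which was fixed beforehand, since the offset is smaller than every fold in the table.

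**Figure D3:**
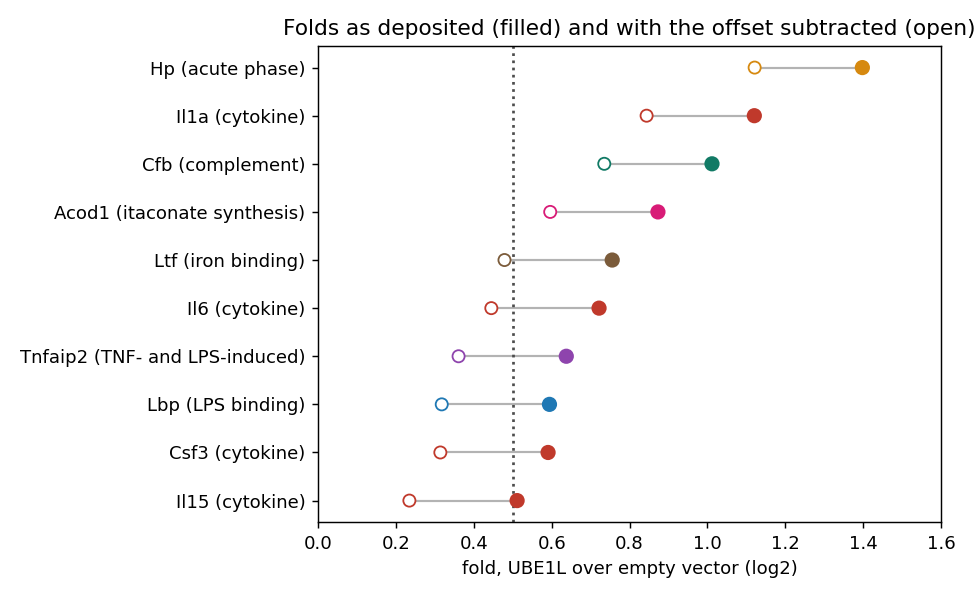
Log2 fold of UBE1L over empty vector for the 10 genes, as deposited (filled) and with the offset of 0.28 subtracted (open), ordered by fold and coloured by role. The dotted line marks a log2 fold of 0.5, and 4 open points, those of Hp, Il1a, Cfb and Acod1, lie to its right.

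The rest of the pathway was followed with 8 lists that hold 163 genes in all, among them the 10. Of the 163, the authors' deposited table gives 15 as higher and 0 as lower, and 148 are not in the table as used here. Among all 259 genes listed there, 83.8% were higher, so the direction of the 15 is to be read against that share. The lists were chosen with earlier results known, and the direction was not tested. A gene that is not in the table was not tested, was under the fold limit or missed the p limit, and is not counted as unchanged. Leaving the 10 genes out, 5 of 153 were higher and 0 lower, with a median log2 fold of 0.74 against 0.72 for all higher genes in the table.

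As a scale for the counts per list, 253 coding genes are listed by the authors, where GENCODE M21 gave 21677 protein-coding genes. How many genes the authors tested is not known, so no count per list was tested against a general rate. Of 20 genes for LPS sensing and proximal signalling the authors' deposited table held 1, Lbp, and not Tlr4, Cd14, Ly96 or Myd88. Of 21 NF-kB subunits, inhibitors and feedback genes it held 1, Tnfaip2, and not Nfkbia, Tnfaip3 or Nfkbiz. The cytokine list had 5 of 25 members higher in the authors' deposited table, the 4 described above and Tslp. Those 4 had been chosen by their folds, so Tslp was the 1 further cytokine held. Tslp encodes an epithelial cytokine that acts on dendritic cells, and in the authors' deposited table its log2 fold was 1.23 (adjusted p 0.0198) and its mean abundance 0.92 log2 CPM. Tnf and Il1b, which lies next to Il1a, are not in it.

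Receptors and signal transducers of the cytokines gave 1 of 14 in the authors' deposited table. This was Lifr, the receptor of leukaemia inhibitory factor, with a log2 fold of 0.59 (adjusted p 0.000231) there. Receptor genes for the 4 cytokines themselves, such as Il1r1, Il6ra, Il15ra and Csf3r, are not in the table. The acute-phase list had 3 of 26 higher in the authors' deposited table, Hp, Lbp and the metalloreductase gene Steap4 (log2 fold 0.66, adjusted p 2.39e-08). Saa3 and Lcn2, acute-phase genes that LPS commonly induces in epithelium, are not in it.

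Cfb was the 1 gene of 23 on the complement list that the authors' deposited table held. C3 is not in it, nor is C2, the paralogue that lies next to Cfb. The iron and metal list had 3 of 18 higher there, Ltf, Hp and Hmox1, the haem-degrading enzyme gene (log2 fold 0.74, adjusted p 8.13e-28 in the authors' deposited table). Inducible enzymes and antimicrobial proteins gave 2 of 22 in the authors' deposited table, Acod1 and the mitochondrial arginase gene Arg2 (log2 fold 0.79, adjusted p 0.00290). Nos2 and Ptgs2 are not in the table.

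**Figure D4:**
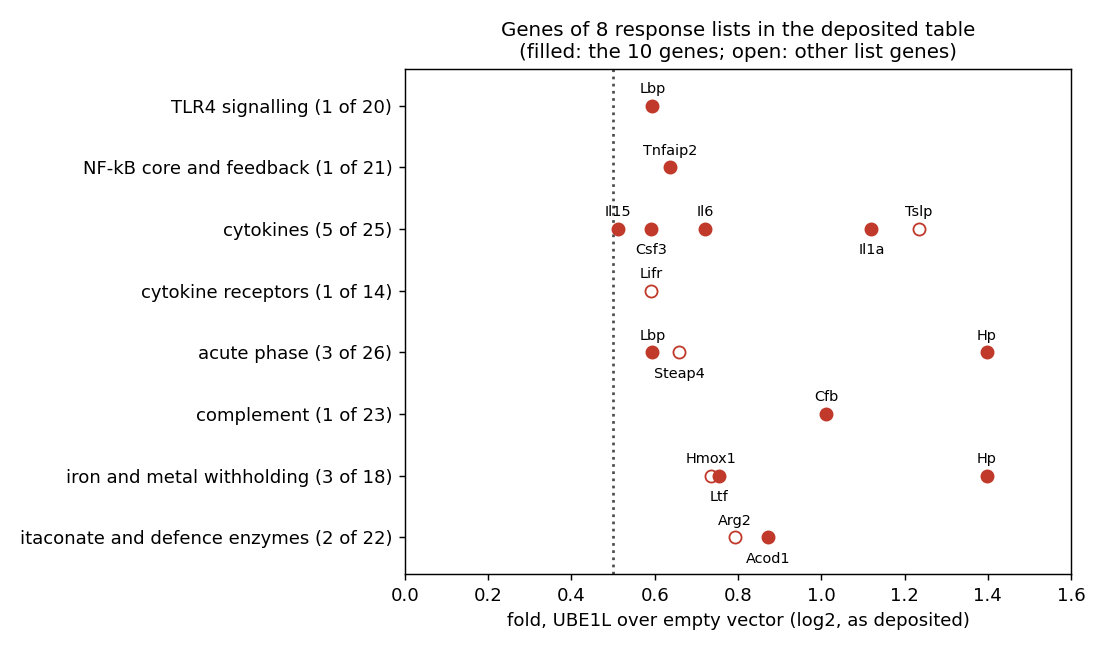
Log2 fold as deposited for every gene of the 8 response lists that the table holds, with the number held of the number on the list beside each name. Filled points are the 10 described genes and open points are the 5 others, all of which lie right of the dotted line at a log2 fold of 0.5. Lbp and Hp appear on 2 lists each.

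Markers of other cell types were looked up in the same table. It held 0 of 7 macrophage, 0 of 7 neutrophil and 0 of 6 T and natural killer cell markers, so it shows no difference in them past its limits and gives no level for them. Fibroblast markers gave 3 of 9, all higher, as were 83.8% of the 259 genes. Their log2 folds were 0.82 for Col3a1, 0.52 for Col1a1 and 0.51 for Dcn in the authors' deposited table. The other 6 fibroblast markers are not in the table. Of 11 mammary epithelial markers it held Kit, at 1.02. Summed marker levels per group need values per library. The epithelial label could not be checked from a table of selected genes, and the part that fibroblast genes play in the 10 folds was not tested. In such bulk RNA, fewer cells of a type and less RNA per cell cannot be told apart.

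The 10 genes did not lie together in the genome. They were spread over 8 chromosomes, with Il1a and Lbp on chromosome 2 and Il15 and Hp on chromosome 8. Of their 20 adjacent protein-coding genes in the RefSeq order on GRCm38.p6, 1 is in the deposited table. It is Ccrl2, next to Ltf on chromosome 9, which encodes a chemerin-binding receptor and was higher by 1.50 log2 units (adjusted p 0.00166) in the authors' deposited table, where its mean was 1.15 log2 CPM. For scale, that table holds 253 coding genes, where GENCODE M21 gave 21677 protein-coding genes. No such share was counted for the neighbours of other genes, and 1 neighbour was not tested.

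The sequence after the stop codon was compared among the 10, since the rule did not use it. In the longest GENCODE M21 coding transcript of each gene, the AU-rich pentamer ATTTA was counted on the sense strand, as was the longer nonamer TTATTTATT, which contains it. Csf3 held 6 pentamers in 669 bases, or 8.97 per kb, and the first 5 of them began between bases 32 and 72 after the stop. Il6 held 10 in 1668 bases (6.00 per kb), Il15 held 1 in 277 (3.61 per kb) and Il1a held 3 in 1101 (2.72 per kb). Il6 has 4 coding transcripts and Il15 has 3, and pentamers were not counted in the shorter ones. The median over 20964 protein-coding genes with sequence after the stop was 1.22 per kb, and all 4 cytokines lay above it.

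Of the other 6 genes, Ltf and Tnfaip2 lay above that median. Ltf held 3 pentamers in 585 bases (5.13 per kb). Tnfaip2 held 2 (1.37 per kb), Lbp held 1 (1.11 per kb) and Acod1 held 1 (0.939 per kb), while Hp and Cfb, with 143 and 53 bases after the stop, held 0. Cfb has 7 coding transcripts, Ltf has 4, and Tnfaip2 and Lbp have 2 each. Pentamers were counted in the longest of them only. The nonamer occurred once each in Ltf and Acod1 and in none of the other 8 genes. That is 2 of 10 genes, where 7.33% of 21677 protein-coding genes and 5.93% of 253 coding genes of the deposited table held it. The counts were not tested, and a match is a description of sequence and no measure of RNA stability.

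The densest 30 bases after the stop codon are shown for the genes with a pentamer run or a nonamer, to let the spacing of the pentamers be compared. They begin 24 bases after the stop in Csf3, 1364 in Il6, 573 in Il1a, 549 in Ltf and 229 in Acod1, and capitals mark pentamers. In Ltf the 3 pentamers overlap end to end and contain the nonamer, whereas in Csf3 they are set apart by a few bases.
Csf3: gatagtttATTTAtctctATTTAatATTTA
Il6: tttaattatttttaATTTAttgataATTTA
Il1a: attttatctatgtATTTAtaaatatATTTA
Ltf: ccttttttaaaaattaaATTTATTTATTTA
Acod1: cttgtaatgttttctgaggaattATTTAtt

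**Figure D5:**
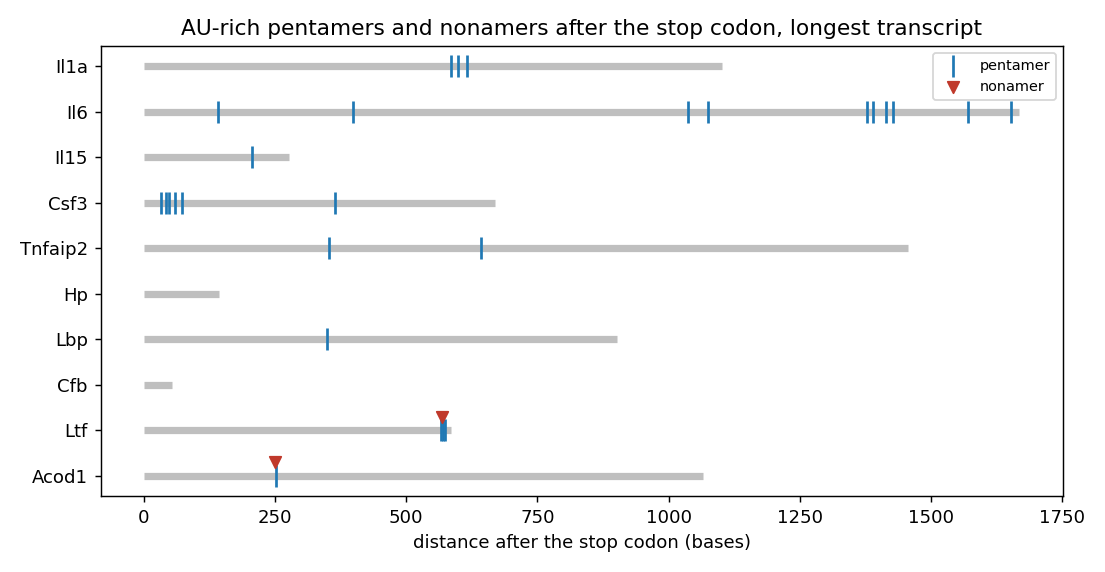
Positions of AU-rich pentamers (blue ticks) and nonamers (red triangles) after the stop codon of the longest coding transcript of each gene, in bases from the stop. Grey bars give the length of that sequence. Csf3 has its run just after the stop, Il6 has most of its 10 pentamers toward the far end, and Hp and Cfb have 0.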

How the data were processed

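Messenger RNA was sequenced from 8 libraries in 4 groups of 2, with single reads of 50 bases from stranded poly-A libraries, per the labels' protocols. Trimmomatic 0.36, Salmon 0.9.1 and edgeR are named, without role or order, per the submitters' processing notes. Neither these nor the header state a genome build, an annotation, a count filter or a model. The 1 table used holds the authors' own comparison, with 5 result columns and no values per library, so no fit was run and no depth is known.

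As deposited by the authors, the fold is the log2 ratio of UBE1L to empty vector and the abundance a mean log2 CPM. The base of the logarithms is not named in the header and was taken as 2, as edgeR writes such columns. The likelihood-ratio score was used as deposited. The p-value and the adjusted p-value are also as deposited, and the file headers name both Bonferroni and FDR for the latter. Each unadjusted p was checked against a chi-square (1 degree of freedom) and differed from it by a relative 6.60e-13 at most.

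The 10 genes, the 8 response lists and the 5 marker lists were chosen with earlier results of these data known. The genes named are the 10, Uba7, every list gene that the table holds, every cell type marker that it holds, and the 3 genes next above and below Hp and Il15 by fold, of which the nearest above each is printed. Ly6c1, Gm20547 and the list genes given as not in the table were picked after the values were seen. Genes were matched by exact symbol. Shared sequence was found by looking up every 50-base stretch of a gene's GENCODE M21 transcripts in those of all other genes, on the same strand. Promoter windows came from RefSeq (GRCm38.p6), and the bases after the stop codon from GENCODE M21. The motif, shared-sequence and rank searches were tested on simulated data with known answers. Python 3.11.15, pandas 2.3.3, scipy 1.17.1 and matplotlib 3.10.9 were used.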

Additional observations from a re-analysis of the deposited data

How the results depend on the processing

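No setting tried could turn a direction, so all 10 genes stayed higher by construction, and stricter limits kept fewer of them. With an adjusted p under 0.01, 8 of the 10 remained, without Il1a and Il15, as did 177 (68.3%) of the 259 genes. A log2 fold of at least 1 kept 3 of the 10, and 51 of the 217 higher genes in the table (19.7% of all 259). A minimum of 4 log2 CPM kept 6 (28.6% of the 259 genes pass it). The offset of 0.28 kept 4, and 90 of the 217 higher genes (34.7% of all 259). Dropping genes that share 20% or more of their stretches, as 30 of all 259 do, kept 9 of the 10, without Cfb. Matching by synonyms gave the same 10. Of the 15 genes held from the response lists, 12 remained with an adjusted p under 0.01, 4 at a log2 fold of at least 1 and 6 with the offset subtracted. The p, fold, abundance and shared-sequence limits and the synonym match only select among deposited values. The offset of 0.28 is smaller than the smallest fold in the table, 0.50 in size. Among 35 pairs of a window and a motif, 8 matched, all before the gene start, where 250 of the 300 bases of a window lie. With 1 mismatch allowed 24 matched, so the motif counts depend on exact letters. No share of all windows was counted with 1 mismatch, so the 24 describe nothing particular to these windows. The nonamer was found in 2 of the 10 genes, in the longest or in any coding transcript (7.33% and 7.88% of all protein-coding genes), and the pentamer in 8 (62.6% of all).

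No paired analysis was possible because each gene has 1 fold and no value for a single library. The planned fits with another scaling, no count filter or left-out replicates were not run either, and the effect of depth on the calls was not measurable.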

Other observations

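The table gives no error for a fold, but an approximate standard error follows from the fold divided by the square root of its likelihood ratio. This assumes that the deposited fold is close to the fitted one and covers only the spread that the authors' model saw. For Acod1 the value so derived from the authors' deposited table was 0.06 log2 units, with an approximate 95% interval of the fold from 0.76 to 0.99. The interval ran from 0.63 to 0.88 for Ltf, from 0.78 to 1.25 for Cfb, from 0.47 to 0.80 for Tnfaip2, from 0.46 to 0.73 for Lbp and from 0.45 to 0.73 for Csf3, by the authors' deposited table. It was wider for Hp (0.86 to 1.93), Il1a (0.32 to 1.92), Il6 (0.28 to 1.17) and Il15 (0.18 to 0.84), again from the authors' deposited table. The interval for Il1a, which ranks 2 of the 10 by fold, overlaps those of the other 9. The genes were chosen on these same values, so the intervals describe precision only, and no difference between genes was tested.

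In the authors' deposited table every adjusted p equals the p-value times 6413.48 divided by a whole number, which acts as a rank among all genes that were ranked, up to 2342. By this number Acod1 was 3rd, Ltf 9th, Lbp 25th, Cfb 27th and Csf3 33rd, followed by Tnfaip2 at 56 and Hp at 234. Il6 was at 1193, Il15 at 1365 and Il1a at 1734. The factor thus differs from gene to gene, where a Bonferroni adjustment multiplies every p by the same factor. Which adjustment gives such a rule was not identified.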
